A study of Mus musculus with 6 samples.

Results

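The genes of distal calcium and magnesium transport are 9 of the 33696 genes in the count files of the mouse kidneys and were found by their symbols. They are the calcium channel Trpv5, the magnesium channel Trpm6, the cytosolic calcium carriers Calb1 (calbindin-D28k) and S100g (calbindin-D9k), the sodium-calcium exchanger Slc8a1, parvalbumin (Pvalb), the calcium-sensing receptor Casr, the magnesium transport protein Cnnm2 and the vitamin D receptor Vdr. All 9 had UMIs (unique molecular identifiers, 1 per captured RNA molecule) in each of the 6 mice.

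The last reabsorption of calcium and magnesium before the collecting duct is transcellular. In the distal convoluted tubule magnesium enters through TRPM6, and in the late distal convoluted and connecting tubule calcium enters through TRPV5, is carried across the cell by the calbindins and leaves through the sodium-calcium exchanger and a calcium pump. Upstream, in the thick ascending limb, both ions pass between the cells, and CASR limits that passage when blood calcium is high. Active vitamin D acts through VDR, and TRPV5 and the calbindins are among its known targets.

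Dissociated kidneys from 3 sham and 3 DOCA-salt animals, all male C57BL/6 and 8 to 10 weeks old when obtained, before surgery and treatment, were profiled by scRNA-seq, with 1 library per mouse. The DOCA-salt mice lost the left kidney, carried a 50 mg pellet of deoxycorticosterone acetate (DOCA, a precursor steroid that activates the mineralocorticoid receptor) and drank water with 1% NaCl for 21 days. The sham mice had a sham surgery and normal water and kept both kidneys, so that loss of 1 kidney cannot be told apart from DOCA-salt. The libraries held 93172739 to 137819127 UMIs in 11058 to 14449 barcodes, and any pair of libraries shared 33 to 69 barcodes. After removal of barcodes over 50% mitochondrial UMIs and of likely doublets, 55630 cells remained, of which 44570 were in tubule classes.

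Segments were named from marker genes that include none of the 9, and the 9 were also left out of the clustering. The distal convoluted tubule, marked by Slc12a3, held 148 to 372 cells per mouse, and the connecting tubule, marked by Klk1, Hsd11b2, Scnn1b, Scnn1g and Kl, held 100 to 244. The principal cells, marked by Aqp2, held 118 to 222 cells, and the intercalated cells, marked by Slc4a1 and Slc26a4, held 293 to 461. Slc12a3 was at 4845 to 8005 CPM in the distal convoluted and 22.6 to 545 CPM in the connecting tubule, and Klk1 at 1508 to 6170 and 2480 to 16146 CPM, over the 6 mice. UMIs were summed per mouse and segment and are given as CPM, the UMIs of a gene relative to all UMIs of that segment in that mouse. Shares of cells and levels per segment are statements on dissociated cells, since the yield of each segment was not measured.

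In GENCODE vM39 (GRCm39) the 9 genes are protein-coding loci. Trpv5 (ENSMUSG00000036899) lies at chr6:41629107-41657703, minus strand, with 15 exons in its canonical transcript. Trpm6 (ENSMUSG00000024727) lies at chr19:18727089-18869875, plus strand, with 39 exons. S100g (ENSMUSG00000040808) lies at chrX:161744988-161747617, minus strand, with 3 exons, and Calb1 (ENSMUSG00000028222) at chr4:15881155-15908085, plus strand, with 11 exons. Slc8a1 (ENSMUSG00000054640) is at chr17:81680534-82045891, minus strand, and Casr (ENSMUSG00000051980) at chr16:36310949-36382503, minus strand. S100g overlaps Ctps2 and Slc8a1 overlaps Gm50044, both on the opposite strand and both in the files, and how reads of either strand were counted is not given in the sources used here.

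The 250 bases before the canonical start are shown for the calcium channel and a calcium carrier that fell and the magnesium channel that rose in the connecting tubule. They were read from GRCm39 at chrX:161747596-161747845 (S100g, minus strand), chr6:41657704-41657953 (Trpv5, minus strand) and chr19:18726839-18727088 (Trpm6, plus strand). Capitals mark the nuclear receptor half-site AGGTCA or its reverse complement TGACCT, the kind of half-site that is paired in vitamin D response elements.
S100g: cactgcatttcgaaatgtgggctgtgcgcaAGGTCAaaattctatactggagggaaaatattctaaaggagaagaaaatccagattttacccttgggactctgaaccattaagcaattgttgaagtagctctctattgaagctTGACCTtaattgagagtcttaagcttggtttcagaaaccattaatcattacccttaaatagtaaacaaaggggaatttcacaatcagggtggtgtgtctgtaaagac
Trpv5: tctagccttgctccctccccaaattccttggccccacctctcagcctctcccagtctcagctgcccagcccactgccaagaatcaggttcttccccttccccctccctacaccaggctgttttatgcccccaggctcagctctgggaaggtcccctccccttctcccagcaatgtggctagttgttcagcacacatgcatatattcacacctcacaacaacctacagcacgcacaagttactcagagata
Trpm6: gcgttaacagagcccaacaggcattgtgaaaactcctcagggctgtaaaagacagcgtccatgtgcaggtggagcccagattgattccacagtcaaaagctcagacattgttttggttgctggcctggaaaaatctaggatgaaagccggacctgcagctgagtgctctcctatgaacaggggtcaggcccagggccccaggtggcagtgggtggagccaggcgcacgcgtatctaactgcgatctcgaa
The S100g window held the half-site at positions -220 and -107 from the start, and the Trpv5 and Trpm6 windows held none. Of the 9 genes, S100g and Casr had a match in such a window, and of the 21584 protein-coding genes with a window 13.1% had one. The half-site AGAACA of steroid receptors such as the mineralocorticoid receptor, or TGTTCT on the other strand, was in none of the 9 windows and in 14.3% of all windows. A match is a description of these letters only.

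Along the nephron of sham mice, Trpv5, Trpm6 and Pvalb were concentrated in 1 or a few segments, while Vdr and Cnnm2 were spread more widely. Trpv5 was at 654, 524 and 574 CPM in the connecting tubule of sham mice 1, 2 and 3, at 55.7 to 74.2 in intercalated cells, at 33.8 to 43.6 in the distal convoluted tubule and at 11.97 to 13.4 in principal cells. These 4 ranges did not overlap, and in the proximal tubule, thin limb and thick ascending limb the level was 1.11 CPM or lower. Trpm6 was at 606, 616 and 801 CPM in the distal convoluted tubule and at 23.0 to 38.2 in the connecting tubule, with 8.10 or lower in the other tubule segments. Pvalb was found almost only in the distal convoluted tubule, at 498, 850 and 517 CPM, against at most 6.77 in any other tubule segment.

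Calb1 and Slc8a1 did not separate the distal convoluted from the connecting tubule. Calb1 was at 2255 to 3085 CPM in the former and 2106 to 3639 in the latter, and Slc8a1 at 3678 to 7295 and 5985 to 8542. S100g was highest in the connecting tubule, at 29057, 17825 and 26795 CPM, and next in the distal convoluted tubule, at 3482 to 8241. S100g was also listed at 99.4 to 263 CPM in the proximal tubule and at 62.0 to 292 in macrophages, a like level in classes that differ in kind, which was read as background. Casr was highest in the thick ascending limb, at 109 to 149 CPM, and was at 12.4 to 35.7 in the distal convoluted, connecting and intercalated classes, whose ranges overlapped. Cnnm2 was highest in the distal convoluted tubule, at 240 to 302 CPM, and was at 30.0 to 98.5 in the other tubule segments. Vdr was at 210 to 303 CPM in the distal convoluted and connecting tubule and at 74.9 to 103 in the intercalated, thick limb and proximal classes. By number of UMIs, the proximal tubule held 68.8% of all Vdr UMIs of sham mice and the connecting tubule 68.0% of those of Trpv5. These levels describe the classes and were not tested between them.

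**Figure D1:**
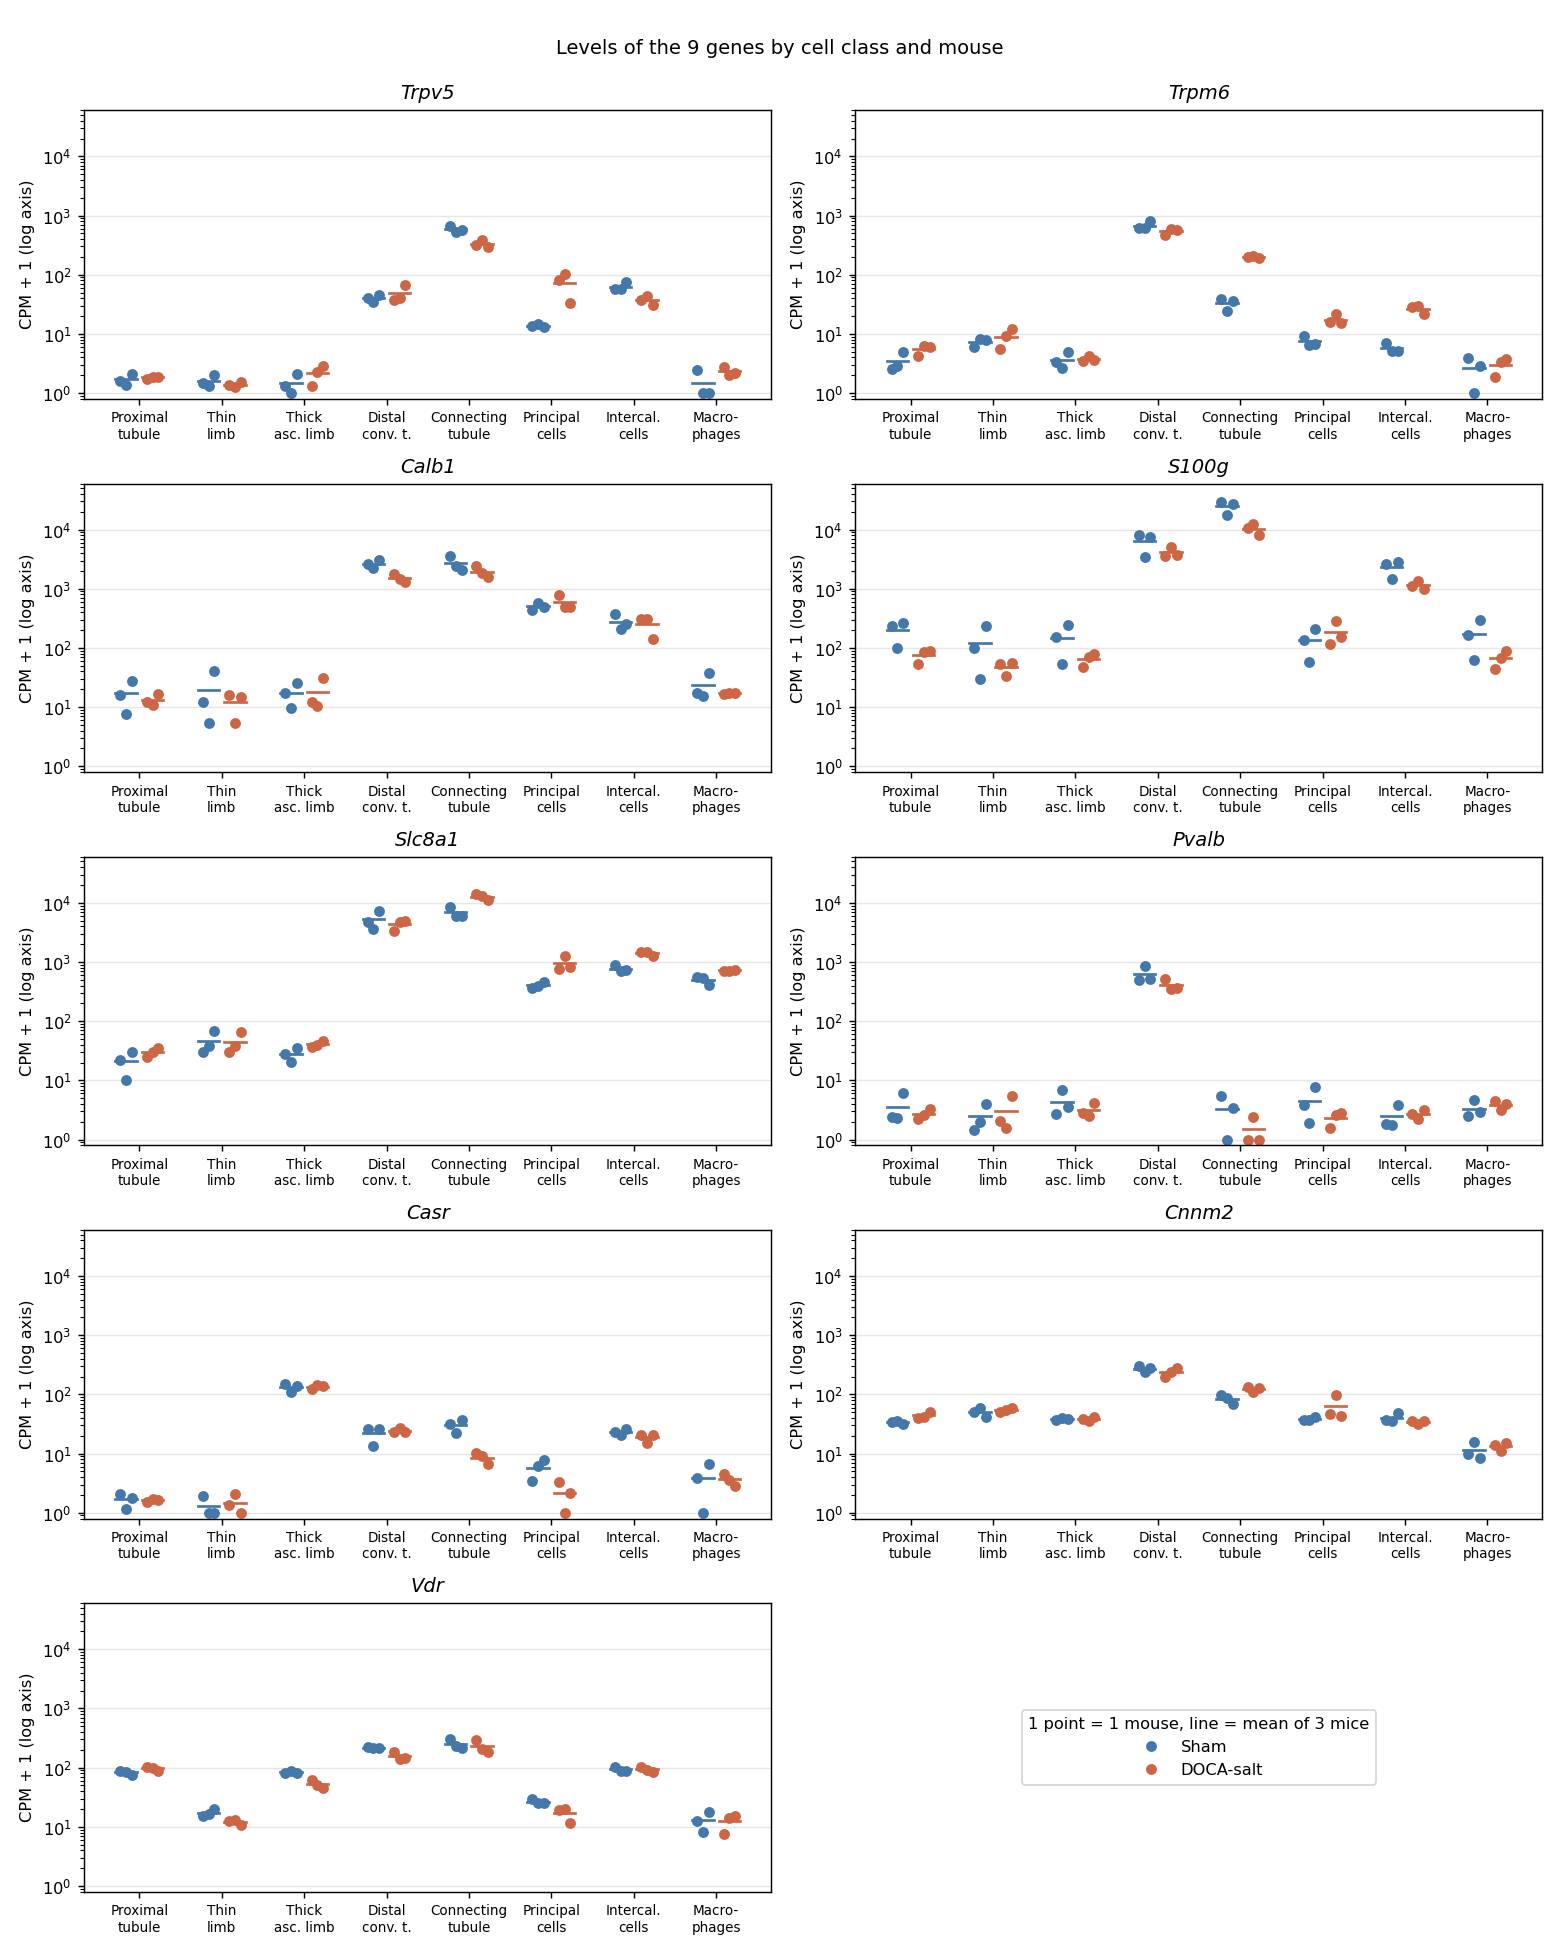
Level of each of the 9 genes (CPM plus 1, log axis) in 7 tubule classes and in macrophages, with 1 point per mouse (blue, sham; orange, DOCA-salt) and a line at the mean of 3 mice. Trpm6 in the connecting tubule of DOCA-salt mice (187 to 202 CPM) stands above all 3 sham mice (23.0 to 38.2 CPM), while S100g, Trpv5 and Casr in the same class stand below.

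Genes whose level ran most like that of Trpv5, Pvalb and Casr were taken by Pearson's r of log2(CPM + 1) class means over 17 named classes, among 11682 genes with at least 20 CPM in some class. For Trpv5 they were Scnn1b and Scnn1g (subunits of the epithelial sodium channel), Calb1, Egfem1 and Phactr1, with r from 0.92 to 0.93. For Pvalb they were Lrrc52, Ctxnd1, Slc12a3 (the thiazide-sensitive cotransporter), Trpm7 and Uroc1, with r from 0.82 to 0.95. For Casr they were Kng2, Bcat2, Cyp2s1, Sostdc1 and Bckdhb, with r from 0.83 to 0.90. The classes share libraries and depth, so these values only describe. Scnn1b, Scnn1g and Slc12a3 are also markers from which the classes were named, so their place here is not independent of the classes.

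Cells of the distal convoluted tubule with and without a Pvalb UMI differed in their calcium genes within every mouse. Parvalbumin marks the early part of the segment. In cells with a Pvalb UMI, Trpv5 was at 0 to 6.63 CPM, and in cells without one it was at 67.5 to 114. S100g was at 371 to 2300 CPM in the former and 6101 to 17420 in the latter, and Slc8a1 at 1365 to 3148 and 5102 to 12330. Trpv5, S100g, Slc8a1 and Calb1 were lower in the cells with Pvalb in 6 of 6 mice. For Trpm6 the groups of mice differed. In sham mice it was at 606, 621 and 766 CPM in the cells with Pvalb and 605, 603 and 842 in those without, and in DOCA-salt mice at 677, 809 and 719 and at 286, 417 and 464. Cnnm2 was at 307, 233 and 290 CPM with and 297, 255 and 258 without Pvalb in sham mice, and at 247, 289 and 329 and at 149, 189 and 231 in DOCA-salt mice. Both were thus higher with Pvalb in all 3 DOCA-salt mice and close together in sham mice, and this difference between the groups was not tested. Median depth in the cells with Pvalb was 6072 to 9238 UMIs in sham and 7680 to 10636 in DOCA-salt mice. In those without it was 2361, 2603 and 1781.5 in sham and 10407.5, 10085.5 and 4788 in DOCA-salt mice. Shallow cells in which Pvalb was missed can thus be among the latter, above all in sham mice. The part of depth in the Trpm6 and Cnnm2 values was not tested.

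Between DOCA-salt and sham mice, more of the 9 genes passed the test in the connecting tubule than in any other class tested. Of the 8 genes with enough UMIs for the test, 6 passed an adjusted p of 0.05 (edgeR quasi-likelihood test, Benjamini-Hochberg over the 9909 genes tested), 4 lower and 2 higher, where 23.1% of all tested genes passed. That share of all genes was also the largest of any class tested, against 0.641 to 17.2% in the others. The calcium entry channel, both calbindins and the calcium-sensing receptor fell, and the magnesium channel and the sodium-calcium exchanger rose. The median log2 change of the 8 was -0.49, against -0.01 over all genes tested. Pvalb had too few UMIs to be tested.

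Trpv5 in the connecting tubule was at 654, 524 and 574 CPM in sham and 314, 382 and 291 in DOCA-salt mice. Its log2 change was -1.01 ± 0.17 (SE, n = 3 per group; adjusted p = 0.00064), and the groups did not overlap. It did not pass when barcodes were classed by marker score (-0.34; adjusted p = 0.207). S100g, which carries calcium away from the channel, went from 29057, 17825 and 26795 CPM to 10649, 12238 and 8240, a log2 change of -1.43 ± 0.23 (adjusted p = 0.000372), and did not pass by marker score either (-0.57; adjusted p = 0.149). Calb1 was at 3639, 2388 and 2106 CPM in sham and 2412, 1820 and 1606 in DOCA-salt mice, so that DOCA-salt mouse 1 lay within the sham range. Its log2 change of -0.67 ± 0.22 was close to the threshold (adjusted p = 0.0416) and did not pass without sham mouse 1 (-0.37; adjusted p = 0.283), DOCA-salt mouse 2 (-0.64; adjusted p = 0.116) or DOCA-salt mouse 3 (-0.54; adjusted p = 0.171). It also did not pass with library size only, without doublet removal or by marker score (0.11; adjusted p = 0.83). Casr was at 30.9, 21.0 and 35.7 CPM in sham and 9.06, 7.95 and 5.74 in DOCA-salt mice (log2 change -2.08 ± 0.31; adjusted p = 0.000218), while in the thick ascending limb, where CASR is known to act, it was at 109 to 149 and 122 to 143 CPM and did not pass (log2 change 0.01 ± 0.15; adjusted p = 0.992).

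Trpm6 moved the other way. It was at 38.2, 23.0 and 35.1 CPM in the connecting tubule of sham mice and at 202, 202 and 187 in DOCA-salt mice, with a log2 change of 2.43 ± 0.19 (adjusted p = 6.32e-07). All 3 DOCA-salt mice lay far above the sham mice. Slc8a1 rose from 8542, 6068 and 5985 CPM to 14217, 13066 and 10958 (log2 change 0.70 ± 0.20; adjusted p = 0.0189). Without sham mouse 3, DOCA-salt mouse 1 or DOCA-salt mouse 2 its adjusted p was 0.0715, 0.0606 and 0.059, and at 20% mitochondrial UMIs it did not pass either (0.44; adjusted p = 0.127). Cnnm2 (log2 change 0.36 ± 0.17; adjusted p = 0.15) and Vdr (-0.31 ± 0.20; adjusted p = 0.298) did not pass.

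The shares of cells with a UMI ran in the same direction for 5 of these 6 genes. After each cell was thinned to 1000 UMIs (46 sham and 34 DOCA-salt cells had fewer and were left out), 3.16% ± 0.84 (SD, n = 3) of sham and 15.8% ± 1.80 of DOCA-salt connecting tubule cells had a Trpm6 UMI. The share with a Trpv5 UMI was 30.9% ± 2.12 and 22.4% ± 2.12, that with S100g 92.5% ± 2.23 and 62.8% ± 9.53, and that with Calb1 71.1% ± 7.02 and 42.8% ± 11.3. Casr UMIs were in 2.81% ± 0.57 and 0.811% ± 0.27. In each of these 5 the groups did not overlap, and the two-sided exact permutation p was 0.1, the smallest that 3 against 3 mice can give. Slc8a1, higher in level, was detected in 91.0% ± 1.74 and 85.9% ± 7.31 of cells, and the groups overlapped (exact permutation p = 0.4). Without thinning the shares were 15.2% and 49.5% for Trpm6, 63.0% and 60.3% for Trpv5, 91.9% and 74.7% for S100g, and 81.6% and 62.1% for Calb1. Proximal tubule cells, thinned alike, had a Trpm6 UMI in 0.237% and 0.342%, a Trpv5 UMI in 0.0717% and 0.0939%, a Calb1 UMI in 2.05% and 1.42% and an S100g UMI in 18.7% and 7.98%, so that the background of S100g was also lower in DOCA-salt mice. In connecting tubule cells without a Trpv5 UMI, Calb1 was at 1172 to 2614 CPM in sham and 1545, 1757 and 205 in DOCA-salt mice. S100g was at 15780 to 26930 and at 4583, 11260 and 1657. In DOCA-salt mouse 3 these were 66 cells at a median depth of 2083 UMIs. In cells with Trpv5, Calb1 was at 2373 to 3876 and 1829 to 2536 CPM, with overlap, and S100g at 18390 to 29550 and 10810 to 12380. The part of these cells in the results was not tested.

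**Figure D2:**
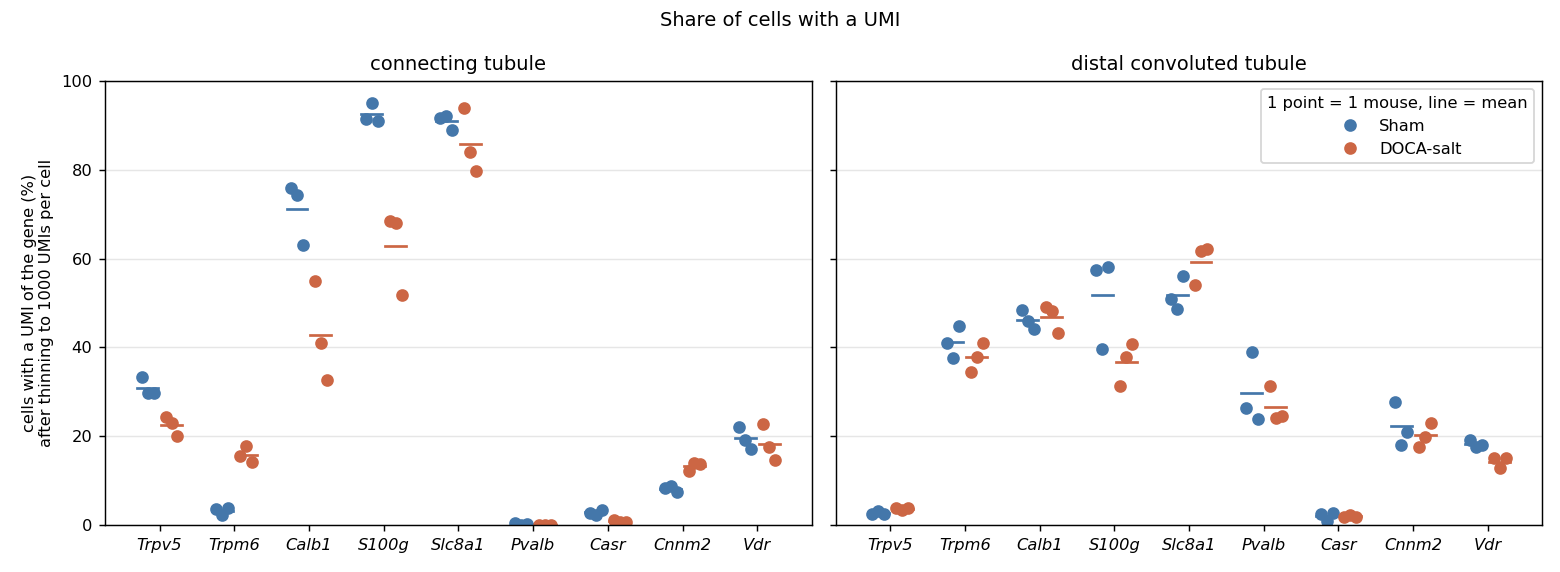
Percent of cells with a UMI of each gene after thinning to 1000 UMIs per cell, by mouse (points) and mean (line), in the connecting and the distal convoluted tubule. In the connecting tubule Trpm6 runs from 2.20 to 3.72% in sham and from 14.2 to 17.8% in DOCA-salt mice, and Calb1 in the distal convoluted tubule is at a mean of 46.2% and 46.8%.

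Of the 5 markers that name the connecting tubule, 4 were lower in DOCA-salt mice with no overlap, and Kl was at 961, 1399 and 848 CPM in sham and 1157, 903 and 758 in DOCA-salt mice, so that the groups overlapped. Klk1, a kallikrein secreted there, went from 13961 to 16146 CPM in sham to 2480 to 3417 in DOCA-salt mice. The summed level of the 5 connecting tubule markers went from 18690 to 20790 to 4743 to 5631 CPM, with none of the 5 at 0. Klk1 was the largest part of this sum in every mouse. The 6 principal cell markers summed to 2691 to 3051 CPM in sham and to 624 to 857 in DOCA-salt connecting tubule cells. Slc12a3 went from 22.6 to 83.0 CPM to 156 to 545 CPM. The 5 distal convoluted tubule markers, which include Slc12a3, went the other way as a sum, from 1656 to 1869 CPM to 982 to 1598. The 8 proximal tubule markers summed to 621 to 1244 CPM in sham and 435 to 534 in DOCA-salt mice. Markers of some other cell types were higher in DOCA-salt connecting tubule cells. The 5 urothelial markers summed to 1.31 to 4.16 CPM in sham and 97.1 to 223 in DOCA-salt mice, and the 5 monocyte markers to 1.47 to 3.94 and 82.2 to 129. The 6 fibroblast markers summed to 0.595 to 1.47 and 14.2 to 21.8, and the 7 macrophage markers to 7.22 to 12.5 and 23.9 to 43.7. Of these, 2 urothelial, 1 monocyte and 1 fibroblast marker were at 0 in all mice. Median mitochondrial UMIs were 20.5 to 23.7% in sham and 17.2 to 19.0% in DOCA-salt mice, and median depth 7078.5 to 9544 and 3749.5 to 13762.5 UMIs per cell. The part of these shifts in the results was not tested. Whether the class covers the same stretch of tubule in both groups cannot be told from these markers, which bears on every connecting tubule change given here. In DOCA-salt mice Slc12a3 in the connecting tubule was at 2.84 to 10.2% of its level in the distal convoluted tubule, Trpm6 at 32.6 to 42.9% and Pvalb at 0 to 0.411%. In sham mice these shares were 0.304 to 1.25%, 3.73 to 6.31% and 0 to 0.886%.

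Neighboring classes were also pooled, an alternative chosen after these marker levels were seen. In connecting tubule and principal cells together 5 of 8 genes passed, where 15.3% of all genes did, and Trpm6 (log2 change 2.34 ± 0.20; adjusted p = 1.93e-05), S100g (-1.30 ± 0.27; adjusted p = 0.00648), Casr (-1.99 ± 0.33; adjusted p = 0.00184) and Slc8a1 (0.86 ± 0.20; adjusted p = 0.0134) were among them. Trpv5 (-0.57 ± 0.20; adjusted p = 0.0731) and Calb1 (-0.35 ± 0.20; adjusted p = 0.286) were not, and Cnnm2 (0.57 ± 0.15; adjusted p = 0.0223) was. In distal convoluted and connecting tubule together 3 of 9 passed (15.1% of all genes), namely Trpv5 (-1.45 ± 0.12), Calb1 (-0.83 ± 0.18) and S100g (-1.54 ± 0.22), and Trpm6 did not (0.34 ± 0.20; adjusted p = 0.317). With all 3 classes pooled 2 of 9 passed (13.0% of all genes), Trpv5 (-0.81 ± 0.14) and S100g (-1.15 ± 0.26). Pooled values also carry the mix of classes, since distal convoluted cells per connecting tubule cell went from 0.771 to 1.53 in sham to 2.30 to 3.37 in DOCA-salt mice (two-sided exact permutation p = 0.1). At Leiden resolution 2 this ratio was 0.969 to 2.80 and 2.75 to 4.72, and the groups overlapped (exact permutation p = 0.2). When each barcode was instead classed by its own marker score, Trpm6 (2.93), Slc8a1 (1.31), Casr (-1.33) and Cnnm2 (0.69) passed in the connecting tubule, and Trpv5, S100g and Calb1 did not, with log2 changes of -0.34, -0.57 and 0.11.

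In the distal convoluted tubule 3 of 9 genes passed, all lower in DOCA-salt mice, where 7.69% of the 10047 genes tested passed. The median log2 change of the 9 was -0.45, against -0.01 over all genes. Calb1 was at 2601, 2255 and 3085 CPM in sham and 1791, 1442 and 1281 in DOCA-salt mice, with no overlap and a log2 change of -0.97 ± 0.18 (adjusted p = 0.00296). It passed in 14 of 15 alternatives, and the one in which it did not was the classing by marker score (adjusted p = 0.103). The thinned share of cells with a Calb1 UMI was 46.2% ± 2.16 in sham and 46.8% ± 3.11 in DOCA-salt mice (exact permutation p = 0.9). Thinned to 3000 UMIs it was 66.6% and 61.0%, with no overlap (exact permutation p = 0.1), and unthinned it was 60.7% and 66.9%. The direction of the share thus depended on the thinning, which also sets which shallow cells are left out. In cells with a Pvalb UMI Calb1 was at 1724, 1403 and 1681 CPM in sham and 1645, 1220 and 1071 in DOCA-salt mice, with overlap. In cells without one it was at 3799, 4122 and 4790 and at 1920, 1638 and 1442 CPM, with no overlap. The latter cells were the shallower ones in sham mice, and the part of depth in these values was not tested.

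Vdr was at 218, 210 and 211 CPM in the distal convoluted tubule of sham mice and at 182, 136 and 146 in DOCA-salt mice (log2 change -0.62 ± 0.15; adjusted p = 0.0164). Pvalb was at 498, 850 and 517 CPM in sham and 508, 352 and 368 in DOCA-salt mice, so that the groups overlapped, and its change of -0.75 ± 0.20 (adjusted p = 0.0308) did not pass without sham mouse 2, the highest (-0.48; adjusted p = 0.0628), nor without sham mouse 3, DOCA-salt mouse 2 or DOCA-salt mouse 3 (adjusted p = 0.0549, 0.0994 and 0.154). Vdr did not pass without sham mouse 1, sham mouse 3, DOCA-salt mouse 2 or DOCA-salt mouse 3 (adjusted p = 0.0652, 0.0656, 0.0697 and 0.0982). Of the 15 alternatives, Vdr passed in 7 and Pvalb in 6. In cells with a Pvalb UMI Vdr was at 181, 192 and 154 CPM in sham and 181, 139 and 142 in DOCA-salt mice, with overlap. In cells without one it was at 269, 251 and 280 and at 182, 134 and 148 CPM, with no overlap. The part of depth in this split was not tested. The main channel of the segment, Trpm6, was at 606, 616 and 801 CPM and at 470, 601 and 575 CPM, and did not pass (log2 change -0.45 ± 0.17; adjusted p = 0.139). Trpv5 (0.07 ± 0.23), S100g (-0.79 ± 0.27; adjusted p = 0.0916), Slc8a1 (-0.42 ± 0.24), Cnnm2 (-0.37 ± 0.17) and Casr (-0.03 ± 0.24) did not pass either. Without sham mouse 2, Trpm6, S100g and Slc8a1 also passed, and 5 genes in all, and without DOCA-salt mouse 2 S100g passed. At 20% mitochondrial UMIs Trpm6 (-0.98; adjusted p = 0.00479), Slc8a1 (-1.12; adjusted p = 0.011), S100g (-1.18) and Cnnm2 (-0.78; adjusted p = 0.0302) passed as well, all lower, and Pvalb did not. S100g also passed with DESeq2 and with no filter on low counts. Median depth was 2550.5 to 6192 UMIs per cell in sham and 6550 to 10434 in DOCA-salt mice, and median mitochondrial UMIs 32.0 to 34.0% and 26.1 to 29.3%. The 5 markers of the segment summed to 9280 to 10980 CPM in sham and 6817 to 7458 in DOCA-salt mice, the 7 macrophage markers to 6.75 to 23.0 and 44.5 to 45.5, the 5 urothelial markers to 1.59 to 2.25 and 11.9 to 16.9, and the 6 fibroblast markers to 0 to 1.21 and 7.85 to 15.4. The 5 connecting tubule markers summed to 4691 to 7037 CPM in sham and 2609 to 3174 in DOCA-salt cells of this segment. Their part in these results was not tested.

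The change in the distal convoluted tubule differed from that in the connecting tubule of the same mice for 6 of the 9 genes, where 10.6% of 10549 genes differed (edgeR with each mouse as a block). Trpm6 differed most, by -2.93 ± 0.19 on the log2 scale (adjusted p = 8.77e-12), and Casr by 2.08 ± 0.33 (adjusted p = 4.64e-05). Trpv5 (1.04 ± 0.23; adjusted p = 0.00247), S100g (0.68 ± 0.16; adjusted p = 0.00539), Slc8a1 (-1.12 ± 0.22; adjusted p = 0.000734) and Cnnm2 (-0.79 ± 0.18; adjusted p = 0.00336) also differed, the last not without sham mouse 3 or DOCA-salt mouse 1 (adjusted p = 0.0546 and 0.052). When each barcode was classed by marker score, Trpv5 (0.63; adjusted p = 0.13), S100g (0.23; adjusted p = 0.658) and Casr (0.83; adjusted p = 0.246) did not differ past the threshold. S100g did not at 20% mitochondrial UMIs either, nor Slc8a1 with DESeq2 (adjusted p = 0.234), while Trpm6 passed in 14 of 14 alternatives. Calb1 did not pass (-0.35 ± 0.18; adjusted p = 0.23), but did without sham mouse 1 (-0.60; adjusted p = 0.045) and by marker score (-0.88; adjusted p = 0.0288), where Vdr passed too (-0.63; adjusted p = 0.0197). Against the thick ascending limb 2 genes differed, Slc8a1 (-0.97 ± 0.13; adjusted p = 1.88e-07) and Calb1 (-0.85 ± 0.25; adjusted p = 0.0213), where 8.11% of all genes did. In the thick ascending limb of sham mice Slc8a1 was at 19.8 to 34.2 CPM, as low as in T or NK cells (17.7 to 45.5 CPM). Calb1 there was at 8.80 to 24.1 CPM, as low as in the proximal tubule (6.73 to 26.9 CPM). The Calb1 difference did not pass without sham mouse 1, sham mouse 2 or DOCA-salt mouse 3 (-0.83, -0.68 and -0.18). With barcodes classed by marker score neither passed, at an adjusted p of 0.137 for Slc8a1 and 0.291 for Calb1, and Trpm6 alone did (-1.62; adjusted p = 0.0406). In the thick ascending limb itself 1 of 8 genes passed (1.58% of all genes), Vdr, at 79.9, 86.9 and 79.7 CPM in sham and 60.8, 48.9 and 44.6 in DOCA-salt mice (log2 change -0.67 ± 0.13; adjusted p = 0.0267). It did not pass without sham mouse 1, sham mouse 3, DOCA-salt mouse 2 or DOCA-salt mouse 3 (adjusted p = 0.102, 0.0873, 0.0944 and 0.146). At 20% mitochondrial UMIs it did not pass either, and it passed in 9 of 15 alternatives. In these cells the 7 macrophage markers summed to 7.15 to 9.17 CPM in sham and 24.9 to 37.7 in DOCA-salt mice, the 6 fibroblast markers to 0.825 to 3.52 and 12.4 to 22.0, and the 5 connecting tubule markers to 2788 to 3310 and 1800 to 2072, while the 6 markers of the segment itself were at 23890 to 27090 and 23890 to 26990. Their part in the Vdr result was not tested.

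**Figure D3:**
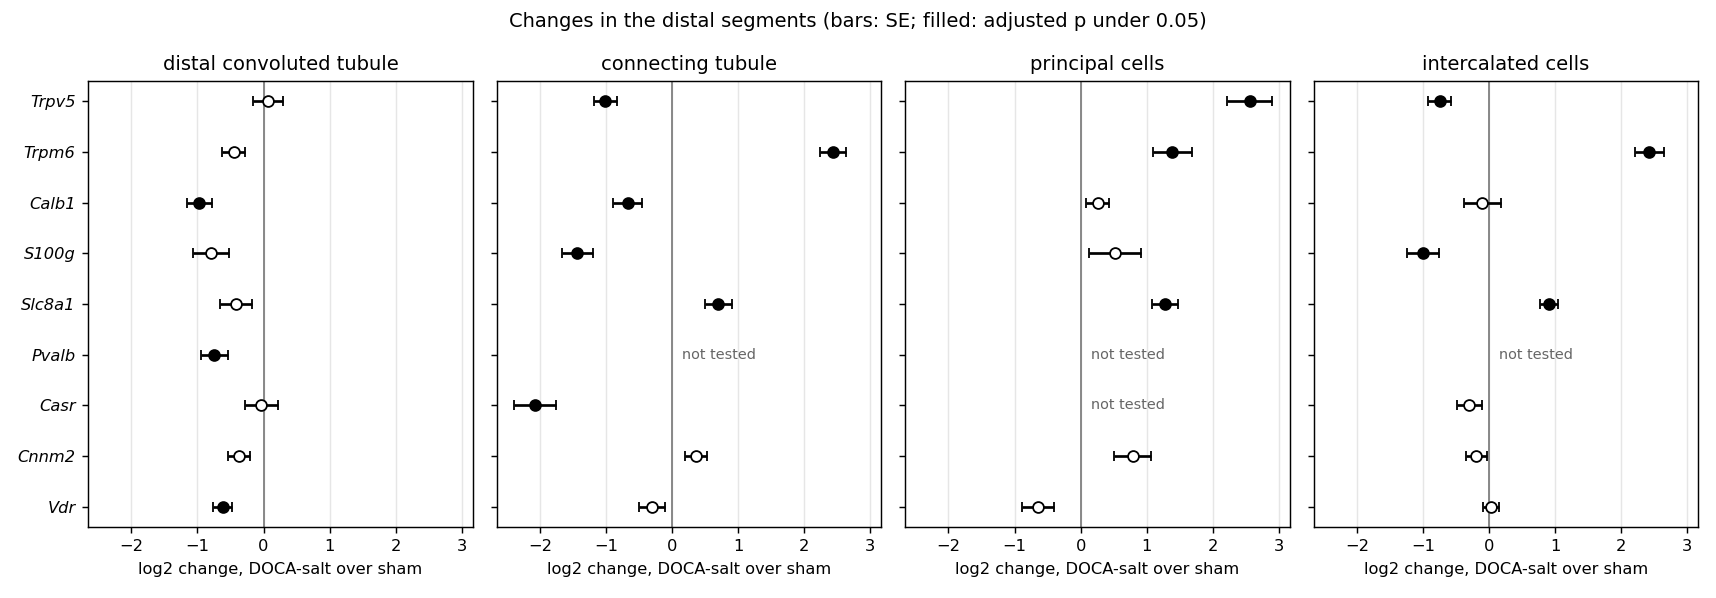
Log2 change (DOCA-salt over sham) of each gene in 4 distal classes, with standard errors; filled points passed an adjusted p of 0.05 and open points did not. Trpm6 is at 2.43 in the connecting tubule and -0.45 in the distal convoluted tubule, and Trpv5 is at -1.01 in the connecting tubule and 2.56 in principal cells.

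In principal cells 3 of the 7 genes tested passed, all higher in DOCA-salt mice, where 8.63% of all genes passed. The median log2 change of the 7 was 0.79, against 0.00 over all genes. Trpv5 was at 12.4, 13.4 and 11.97 CPM in sham and 81.2, 102 and 32.9 in DOCA-salt mice (log2 change 2.56 ± 0.34; adjusted p = 0.000542), still below the connecting tubule of the same mice at 11.3 to 26.7% of it. Slc8a1 rose from 360, 396 and 456 CPM to 767, 1249 and 829 (1.28 ± 0.20; adjusted p = 0.00138) and Trpm6 from 8.10, 5.55 and 5.73 CPM to 14.7, 20.4 and 14.1 (1.39 ± 0.30; adjusted p = 0.0113), the latter not passing without DOCA-salt mouse 2 (1.19; adjusted p = 0.055). In sham mice the Trpm6 level of principal cells overlapped that of the thin limb (5.05 to 7.28 CPM). Kl, the Klotho gene and a marker of the connecting tubule, rose as well, from 54.8 to 86.1 CPM to 326 to 395 (2.36 ± 0.18). S100g was at 56.9 to 212 and 118 to 288 CPM (0.52 ± 0.39; adjusted p = 0.473), like the level read as background in macrophages of sham mice (62.0 to 292 CPM). Klk1 fell from 33.8 to 107 CPM to 17.2 to 23.5 (-1.77 ± 0.35). Of the 5 connecting tubule markers, Scnn1b (283 to 549 and 194 to 278 CPM) and Scnn1g (266 to 282 and 134 to 162) were also lower without overlap. Hsd11b2 overlapped between the groups. The 5 markers summed to 3572 to 4694 CPM in sham and 3263 to 4483 in DOCA-salt principal cells, with overlap. Pooled with the connecting tubule, Trpv5 had the opposite sign, as given above. With barcodes classed by marker score none of the 3 calls held, at log2 changes of 0.84 for Trpv5 (adjusted p = 0.398 in edgeR), 0.98 for Trpm6 (adjusted p = 0.142) and 0.84 for Slc8a1 (adjusted p = 0.0818), and S100g alone passed, lower in DOCA-salt mice (-2.35; adjusted p = 0.00455).

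Other values moved with the principal cell results. The 5 urothelial markers summed to 10.2 to 14.6 CPM in sham and 108 to 225 in DOCA-salt principal cells, the 5 monocyte markers to 2.38 to 3.24 and 21.8 to 44.4, the 7 macrophage markers to 5.09 to 11.5 and 24.1 to 64.6, and the 6 thin limb markers to 46.9 to 154 and 138 to 964. The 6 principal cell markers summed to 17080 to 19680 CPM in sham and 15140 to 17610 in DOCA-salt mice. Median depth was 8411.5 to 10040 UMIs per cell in sham and 11464 to 16178 in DOCA-salt mice. The part of these values in the principal cell results was not tested.

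In intercalated cells 4 of 8 genes passed (5.33% of all genes), with the same signs as in the connecting tubule. Trpm6 was at 6.08, 4.16 and 4.12 CPM in sham and 27.7, 28.5 and 21.0 in DOCA-salt mice (log2 change 2.43 ± 0.22; adjusted p = 0.000481), and Slc8a1 at 697 to 873 and 1265 to 1477 CPM (0.91 ± 0.14; adjusted p = 0.00491), the latter not passing by marker score (0.42; adjusted p = 0.135). The sham level of Trpm6 here was as low as in the thin limb (5.05 to 7.28 CPM) and in T or NK cells (2.21 to 5.09 CPM). S100g was at 1471 to 2886 and 979 to 1347 CPM (-0.999 ± 0.24; adjusted p = 0.0373) and Trpv5 at 55.7 to 74.2 and 29.5 to 42.7 CPM (-0.75 ± 0.17; adjusted p = 0.0312). Leaving out a mouse ended the S100g call for 5 of the 6 mice, all but sham mouse 2 (adjusted p from 0.0535 to 0.156), and the Trpv5 call for sham mouse 3, DOCA-salt mouse 1 or DOCA-salt mouse 3 (0.113, 0.0981 and 0.128). At 20% mitochondrial UMIs the Trpv5 call was lost (-0.78; adjusted p = 0.133) and Casr passed (-1.87; adjusted p = 0.00674), against -0.30 ± 0.19 at the limit of 50%. In these cells the 5 urothelial markers summed to 3.47 to 8.05 CPM in sham and 25.2 to 43.1 in DOCA-salt mice, the 7 macrophage markers to 7.81 to 12.6 and 19.5 to 35.6, the 6 fibroblast markers to 23.4 to 36.2 and 59.8 to 84.0, and the 9 intercalated markers to 7388 to 8032 and 6723 to 6960, with median mitochondrial UMIs of 22.1 to 24.9% and 26.0 to 27.3%. The part of these values in the intercalated results was not tested.

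These intercalated levels were also set against those of the connecting tubule of the same mouse. As a percent of the level in the connecting tubule, Trpv5 was at 8.54 to 12.9, Trpm6 at 11.2 to 18.1, Calb1 at 8.76 to 16.7, S100g at 8.25 to 11.9 and Slc8a1 at 10.2 to 12.1 over the 6 mice. Vdr was at 34.0 to 44.3, Cnnm2 at 26.3 to 70.4 and Casr at 71.1 to 336 percent. Of the 5 connecting tubule markers, Klk1 was at 11.1 to 13.1 percent in sham and 25.4 to 41.7 in DOCA-salt mice, Scnn1b at 23.7 to 26.3 and 42.6 to 43.6, Hsd11b2 at 12.5 to 17.2 and 21.4 to 38.2, Kl at 10.96 to 13.9 and 15.5 to 16.01, and Scnn1g at 9.33 to 16.1 and 9.41 to 22.9. The groups overlapped for Scnn1g and not for the other 4. The connecting tubule markers summed to 2408 to 2682 CPM in sham and 1310 to 1749 in DOCA-salt intercalated cells, with none of the 5 at 0. The part of connecting tubule RNA or cells in the intercalated results was not tested.

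**Figure D4:**
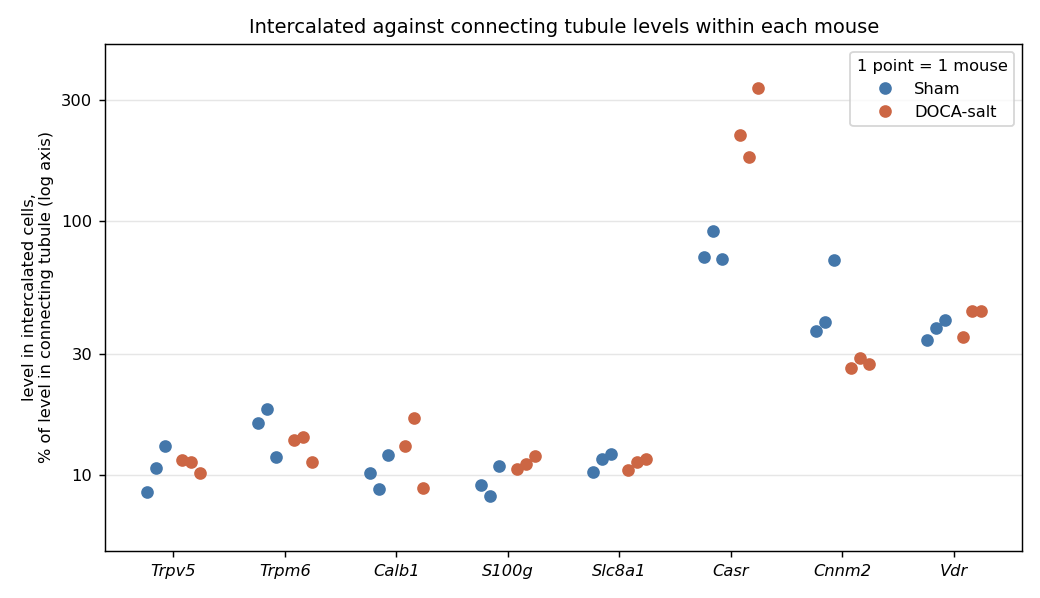
Level in intercalated cells as a percent of the level in the connecting tubule of the same mouse (log axis), with 1 point per mouse; Pvalb is left out because it was at 0 in the connecting tubule of 3 mice. Trpv5, Trpm6, Calb1, S100g and Slc8a1 stay between 8.25 and 18.1% in sham and DOCA-salt mice, and Casr, Cnnm2 and Vdr lie higher.

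The intercalated clusters were also tested apart, which was chosen after the levels were seen. In the clusters with more Slc26a4 (pendrin) than Slc4a1 UMIs 2 of 8 genes passed (8.56% of all genes), Trpm6 (2.09 ± 0.31; adjusted p = 0.00159) and Trpv5 (-1.05 ± 0.28; adjusted p = 0.0376). In those with more Slc4a1 (the anion exchanger of acid-secreting cells) 2 passed (2.68% of all genes), Trpm6 (2.80 ± 0.42; adjusted p = 0.00413) and Slc8a1 (1.77 ± 0.31; adjusted p = 0.0101).

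The same test was run in segments further upstream and over the whole kidney. In the proximal tubule 1 of 9 genes passed (10.9% of all genes), S100g, at 231, 99.4 and 263 CPM in sham and 52.0, 83.1 and 88.7 in DOCA-salt mice (log2 change -1.52 ± 0.34; adjusted p = 0.0249). It did not pass when any mouse but sham mouse 2 was left out (adjusted p from 0.0651 to 0.0829). Macrophages, which should lack S100g, had 162, 62.0 and 292 CPM and 43.4, 66.3 and 87.8 CPM, so that this change was measured at the background level. In the thin limb 0 of 6 passed in edgeR (0.641% of all genes) and 0 in DESeq2, and 1 of the 6, S100g, was under 0.05 before adjustment (-1.38 ± 0.56; adjusted p = 0.405 in edgeR). In the thin limb of sham mice S100g was at 29.1 to 230 CPM, also like the background level. Over all tubule cells S100g alone passed (-1.07 ± 0.27; adjusted p = 0.046; 8.18% of all genes), and over all cells S100g (-1.26 ± 0.29; adjusted p = 0.02) and Trpv5 (-0.85 ± 0.19; adjusted p = 0.0186) passed (17.2% of all genes). In such sums fewer cells of a class and less RNA per cell cannot be told apart. Connecting tubule cells made up 1.76, 3.00 and 2.80% of tubule cells in sham and 1.671, 1.504 and 1.701% in DOCA-salt mice (exact permutation p = 0.1, two-sided), with overlap at 20% mitochondrial UMIs (p = 0.4, same exact test) and at Leiden resolution 2 (p = 0.2, same exact test). By marker score they were 4.65 to 8.30% in sham and 2.01 to 3.14% in DOCA-salt mice, with no overlap. Distal convoluted cells made up 2.26, 2.31 and 4.27% and 3.84, 5.07 and 4.27% (p = 0.3, same exact test). The S100g call over all tubule cells was lost without sham mouse 1, sham mouse 3 or any 1 DOCA-salt mouse (adjusted p from 0.0638 to 0.18). Over all cells it was lost without sham mouse 1, DOCA-salt mouse 1 or DOCA-salt mouse 3 (0.0589, 0.0503 and 0.0818). The Trpv5 call over all cells was lost without DOCA-salt mouse 3 (0.0704) and at 20% mitochondrial UMIs.

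A list of 45 further genes of calcium and magnesium handling placed these changes among their partners. Some of the 45, among them Slc12a3, Klk1, Kl, Slc12a1 and Cldn10, are also markers from which the segments were named. Unlike the 9 genes, the listed genes were not kept out of the clustering. The calls of such markers are thus not independent of the classes in which they were tested. In the distal convoluted tubule 13 of 37 tested genes passed, 6 higher and 7 lower, where 7.69% of all genes tested passed. In the connecting tubule 20 of 37 passed, 8 higher and 12 lower, beside 23.1% of all genes, and in the thick ascending limb 2 of 37, both lower, beside 1.58%. The median log2 change was -0.04, 0.06 and 0.01, against -0.01, -0.01 and 0.00 over all genes tested.

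Of 6 partners of calcium entry, S100a10 and Anxa2, which together bring TRPV5 to the membrane, rose in both distal segments. Both also passed, higher in DOCA-salt mice, in principal cells and in the proximal tubule. S100a10 went from 55.1, 76.8 and 69.0 CPM to 508, 497 and 478 in the connecting tubule (log2 change 2.70 ± 0.17; adjusted p = 6.2e-08) and by 1.13 ± 0.16 in the distal convoluted tubule, and Anxa2 by 2.04 ± 0.23 and 2.79 ± 0.30. Rab11a, of the recycling endosome, rose in the distal convoluted tubule (0.64 ± 0.17). Of 3 calcium pumps, Atp2b2 fell in both (-1.31 ± 0.27 and -2.10 ± 0.22), and Atp2b1 (0.70 ± 0.15) and Atp2b4 (0.90 ± 0.19) rose in the connecting tubule. S100a10 and Anxa2 thus moved opposite to Trpv5 in the connecting tubule and in the same direction in principal cells. The pumps moved in both directions.

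Of the 7 genes of hormone and local control, Klk1 fell in both distal segments (-1.44 ± 0.22 in the distal convoluted, -2.57 ± 0.19 in the connecting tubule) and in the thick ascending limb (-0.65 ± 0.14), where Kl also fell (-0.64 ± 0.14). Pth1r, the parathyroid hormone receptor, fell in the distal convoluted tubule (-0.96 ± 0.23), and Stc1, stanniocalcin, rose in the connecting tubule (1.24 ± 0.19). Of the 6 genes of the paracellular route, Cldn19 rose in the distal convoluted tubule (2.08 ± 0.38) and Slc12a1 fell there (-0.77 ± 0.15). In the connecting tubule Slc12a1 (-1.58 ± 0.49) and Cldn10 (-0.96 ± 0.24) fell. The 6 thick limb markers, which include Slc12a1 and Cldn10, summed to 150 to 452 CPM in sham connecting tubule cells. In sham endothelial cells they summed to 134 to 413 CPM, so that these connecting tubule falls were measured near the background level. In the thick ascending limb, where that route lies, none of the 5 tested passed in edgeR, with log2 changes of 0.06 ± 0.14 for Slc12a1, 0.06 ± 0.15 for Cldn10 and 0.15 ± 0.14 for Cldn19, and 1 of the 5, Cldn16, was under 0.05 before adjustment (-0.30 ± 0.12; adjusted p = 0.336 in edgeR).

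Of the 5 genes around magnesium channels, Egf, the epidermal growth factor gene that stimulates TRPM6, went from 1691, 2495 and 2058 CPM to 847, 808 and 1005 in the distal convoluted tubule (log2 change -1.38 ± 0.17; adjusted p = 8.5e-05) and fell in the connecting tubule (-1.42 ± 0.25). Rack1, which binds TRPM6, rose in both (0.57 ± 0.15 and 0.69 ± 0.18), and Trpm7, the sister channel, fell in the connecting tubule (-0.44 ± 0.15). Of 10 genes of magnesium exit and CNNM partners, Arl15, which binds CNNM proteins, rose in both (0.89 ± 0.18 and 1.79 ± 0.18), Cnnm1 fell in both (-1.03 ± 0.23 and -1.69 ± 0.41), and Slc41a1 fell in the connecting tubule (-0.86 ± 0.23). Of 8 genes of membrane voltage and transcription, Slc12a3 fell in the distal convoluted tubule (-0.63 ± 0.17) and rose in the connecting tubule (2.89 ± 0.46), where the potassium channel genes Kcnj10 (-1.19 ± 0.20) and Kcnj16 (-0.74 ± 0.15) fell.

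**Figure D5:**
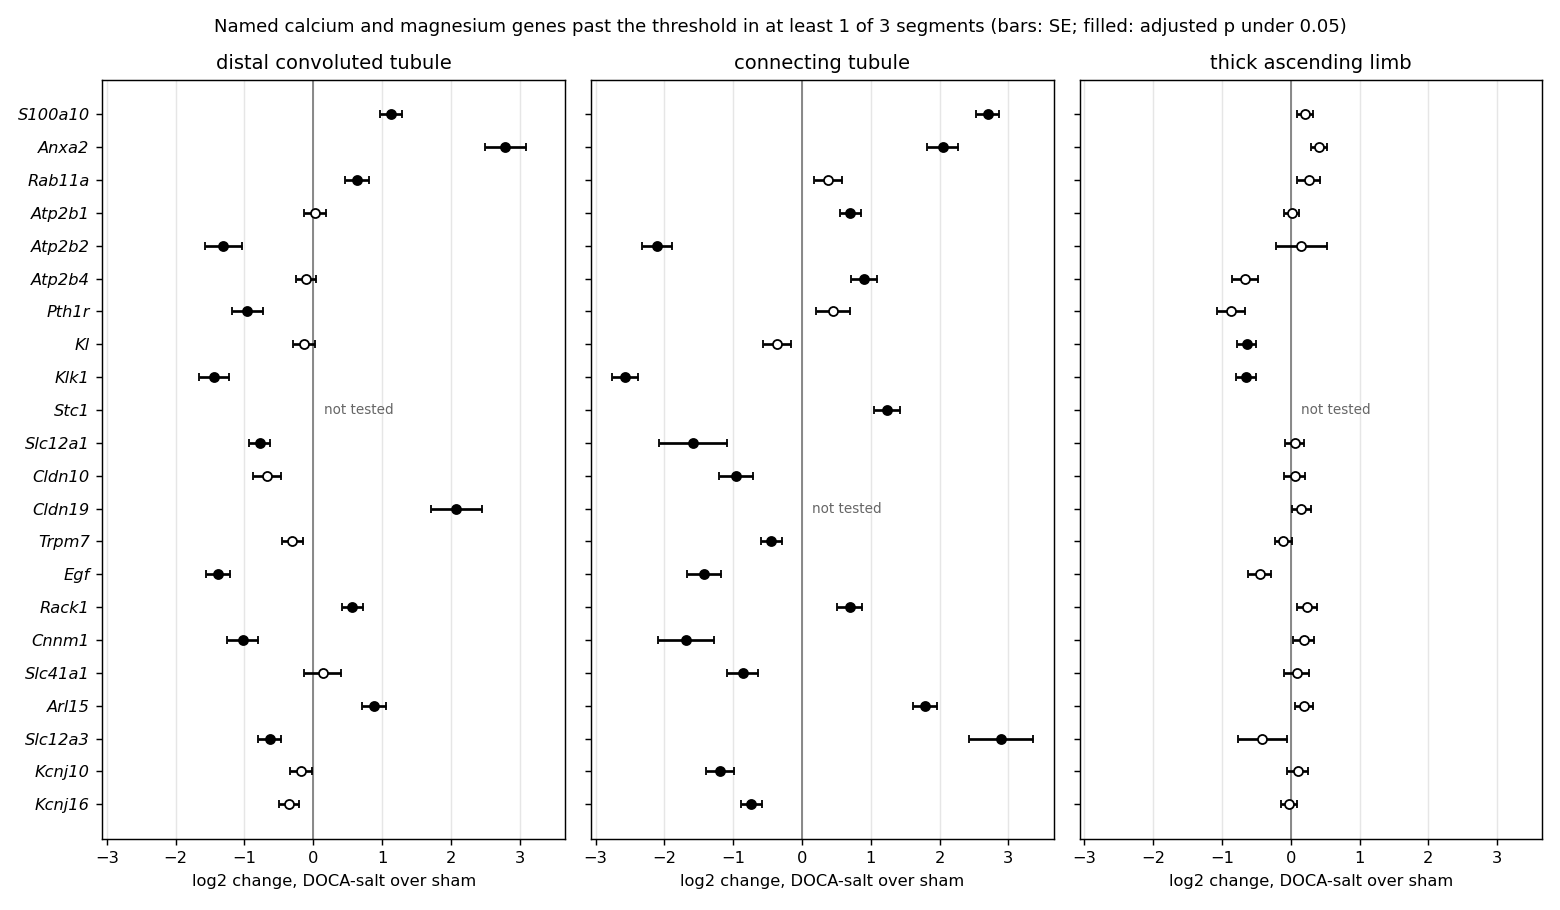
Log2 change (DOCA-salt over sham) of the partner genes named in the text, each of which passed in at least 1 of 3 segments, with standard errors; filled points passed an adjusted p of 0.05. S100a10, Anxa2, Rack1 and Arl15 are to the right of 0 and Atp2b2, Klk1, Egf and Cnnm1 to the left in both the distal convoluted and the connecting tubule, and the thick ascending limb has 2 filled points.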

How the data were processed

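Kidneys of 3 sham and 3 DOCA-salt mice were profiled with the 10x Genomics 3′ method. What the authors deposited are raw, unscaled UMI counts for each gene in each barcode, from Cell Ranger with the GRCm39 genome; the methods name release 9.0.0 and the file headers 8.0.1, and the annotation release is not given in the sources used here.

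Barcodes with at least 170 genes, 500 UMIs, at most 50% mitochondrial and 5% hemoglobin UMIs were kept, limits that the study's methods also give, and Scrublet (scanpy 1.11.5) removed likely doublets at 0.8% per 1000 barcodes. The 2000 most variable genes, without the 9 genes, gave 30 principal components, 15 neighbors and Leiden clusters (python-igraph 0.11.9, resolution 1). Of 33 clusters, 1 stayed unnamed. Sums per mouse and segment (at least 10 cells) were tested with edgeR 4.0.16 in R 4.3.3 (its filter on low counts, TMM, quasi-likelihood F test, Benjamini-Hochberg over all genes). An SE is the log2 change over the square root of F. Shares used expected detection after thinning to 1000 UMIs and exact permutation tests (scipy 1.17.1).

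Members and lists were chosen with earlier results of these data known. Named are the 9 genes in every segment, listed partner genes past the threshold in the distal convoluted tubule, connecting tubule or thick ascending limb (Kl and Klk1 also in principal cells, chosen after their values were seen), and the 5 genes most like Trpv5, Pvalb and Casr. S100a10 and Anxa2 are also named in principal cells and the proximal tubule, likewise chosen after their values were seen. Some listed partner genes are counted but not reported here by name. In simulated connecting tubule counts (9811 genes, 200 changed), the test recovered 99% of 4-fold and 68% of 2-fold changes, with 9 false among 176 calls. The labels give no meaning to shared replicate numbers, and same-numbered mice did not deviate together (r = -0.125, -0.454 and -0.0825 over all tubule cells). Alternatives were DESeq2 1.42.0, its size factors, library size only, no filter, each mouse left out, a replicate block, at most 20% mitochondrial UMIs, no doublet removal, Leiden resolution 2, marker scores per barcode, other thinning (none or 3000 UMIs), a pseudocount of 10, and, added after seeing the data, pooled and split classes.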

Additional observations from a re-analysis of the deposited data

Results flagged for a closer look

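Changes that differed between segments of the same mice, by the test of the difference itself, stand out for 8 values. Between the distal convoluted and the connecting tubule the log2 change differed by 1.04 for Trpv5, -2.93 for Trpm6, 0.68 for S100g, -1.12 for Slc8a1, 2.08 for Casr and -0.79 for Cnnm2. Between the distal convoluted tubule and the thick ascending limb it differed by -0.85 for Calb1 and -0.97 for Slc8a1. Levels of Calb1 in the thick ascending limb (8.80 to 29.8 CPM) were as low as in macrophages (14.6 to 36.0 CPM), and the Calb1 difference passed in 5 of 14 alternatives. Slc8a1 in the thick ascending limb of sham mice (19.8 to 34.2 CPM) was likewise as low as in T or NK cells (17.7 to 45.5 CPM). Groups of 3 mice are too small for a test of single outlying mice.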

How the results depend on the processing

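In the connecting tubule Trpm6 and Casr passed in all 15 alternatives fixed at the start. Counts below are of the 9 genes past the threshold, and the cause of each shift was not tested. Leaving out 1 mouse gave 1 to 5 in the distal convoluted tubule, 0 to 2 in the thick ascending limb, 2 to 4 in intercalated cells, 0 to 2 in the proximal tubule, 0 to 1 in the thin limb, 0 to 2 in all tubule cells, 0 to 4 in all cells, and 1 to 3 for the difference from the thick ascending limb. In the distal convoluted tubule the count was 1 with library size only, 6 at 20% mitochondrial UMIs, 1 at resolution 2 and 0 by marker score. In the connecting tubule it was 3 pooled with the distal convoluted tubule and 2 with principal cells too. Without a filter it was 3 in the thick ascending limb, 6 in principal cells, 1 in the thin limb and 2 in all tubule cells. Principal cells gave 1 by marker score (S100g, so that none of the 3 calls held) and 5 pooled with the connecting tubule, and intercalated cells gave 2 without doublet removal and 2 in either group of clusters. All tubule cells gave 4 with DESeq2, 3 at 20% mitochondrial UMIs, and 0 without doublet removal or by marker score. The difference from the thick ascending limb gave 1 with DESeq2, at 20%, without doublet removal, at resolution 2 and by marker score (there Trpm6, neither of the 2 calls reported).

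With the replicate number as a block, although the numbers do not pair the mice, the count was 1 in the distal convoluted tubule, 6 in the connecting tubule, 3 in principal cells, 2 in intercalated cells and 0 in the thick ascending limb, proximal tubule, thin limb, all tubule cells and all cells.

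Of values past the threshold in either setting, signs turned for Trpv5 of the distal convoluted tubule when pooled with the connecting tubule (-1.45) and with principal cells too (-0.81), Pvalb with all 3 pooled (0.32), Calb1 of the connecting tubule by marker score (0.11), Trpv5 of principal cells pooled with the connecting tubule (-0.57) or all 3 (-0.81), S100g of principal cells by marker score (-2.35) and pooled (-1.30 and -1.15), and Trpv5 in Slc4a1-led intercalated clusters (0.21). Of the other single-gene values, 1202 stayed on the same side of the threshold under the alternatives fixed at the start, 49 passed only in the alternative and 91 only in the values reported. Under those added later the numbers were 42, 4 and 18. Over all alternatives, 87 values of 32 results, past the threshold in neither setting, changed sign.

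At 20% mitochondrial UMIs the difference (DOCA-salt minus sham) in the principal cell share was -2.63 and in distal convoluted cells per connecting tubule cell 0.941. Differences in the share of connecting tubule cells with a UMI, in percentage points, were 34.3 unthinned and 24.9 at 3000 UMIs for Trpm6, -2.70 unthinned for Trpv5, -17.2 and -21.8 for S100g, and -19.5 unthinned for Calb1. In the distal convoluted tubule they were 6.15 and -5.65 for Calb1, and -13.2 at 3000 UMIs for Pvalb. At a pseudocount of 10, 2 of the 5 genes most like Trpv5 and 1 of those most like Casr were shared. Casr in the connecting tubule of DOCA-salt mice and Trpm6 in principal cells rest on few UMIs, which limits their precision.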

Other observations

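Outside the tubule, Cnnm2 was at 77.6, 128 and 64.8 CPM in the smooth muscle or pericyte class of sham mice and at 257, 244 and 266 CPM in DOCA-salt mice, which was not tested. Slc8a1, at 1487 to 1672 CPM in sham and 1365 to 1793 CPM in DOCA-salt mice in the same class, overlapped between the groups. In macrophages Slc8a1 was at 413 to 563 CPM in sham and 696 to 744 CPM in DOCA-salt mice. The 1 unnamed cluster, of 408 cells, had Trpm6 at 67.3 to 74.4 CPM in sham and 92.9 to 103 CPM in DOCA-salt mice, above the connecting tubule of sham mice.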
